A study of Mus musculus with 34 samples.

Results

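B-lineage cells, the cells that make antibodies and their resting precursors, were picked from single-cell RNA profiles of MMTV-Wnt1 mouse mammary tumours, which are driven by the Wnt1 oncogene. A cell was a member when it held at least 2 unique molecular identifiers (UMIs, each counting 1 captured transcript) of Cd79a and at least 1 of Ms4a1, Cd79b or Jchain. It also had to hold under 2 UMIs of Cd3d, Cd3e and Cd3g together, under 2 of Krt18 and under 2 of Lyz2, which mark T cells, epithelial cells and myeloid cells. This gave 112 members among 43197 kept cells, those in which at least 500 UMIs from at least 200 genes were counted, fewer than 20% of them mitochondrial. The counts of these 9 genes chose the members, so their levels are given as a description and were not tested.

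A B cell carries its antibody on its surface as the B cell receptor, and Cd79a and Cd79b are the signalling chains of that receptor. Ms4a1 encodes CD20, a surface protein of B cells that is lost when they become antibody-secreting plasma cells, and Jchain joins the subunits of secreted IgM and IgA. A naive B cell makes IgM and IgD together (Ighm and Ighd) with either a kappa (Igkc) or a lambda (Iglc) light chain, and switches to IgG, IgA or IgE after activation. In tumours, B cells can present antigen to T cells through MHC class II proteins and can gather in lymphoid aggregates.

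MMTV-Wnt1 tumours were transplanted into C57BL6j mice, and 10 libraries of sorted cells and 1 pooled table of unsorted tumours were used out of 34 samples of the series. Of the 4 libraries of magnetically sorted CD45-positive immune cells, 2 came from untreated tumours and 2 from tumours taken 48 h after the last of 5 doses of 4 mg/kg doxorubicin, a DNA-damaging chemotherapy drug. The 6 libraries sorted for CD4/8-positive T cells had 1 library per group, namely untreated, 48 h after the same doxorubicin course, and 4 antibody arms begun 48 h after it. The arms received 200 µg anti-PD1 with 200 µg IgG, 200 µg anti-CTLA4 with 200 µg IgG, 200 µg of both antibodies, or 400 µg IgG, in 3 doses given every 72 h, with harvest 24 h after the last. The unsorted tumours grew in female wild-type mice of 6 to 8 weeks, 1 untreated and 1 given doxorubicin, and their pooled table holds 2 barcode sets that are not tied to a tumour. The labels give neither the age of the mice nor the number of animals behind each sorted library.

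The libraries held 16908180 to 93748407 UMIs and 1480 to 7623 kept cells, with medians of 4001.5 to 10513 UMIs per kept cell. No cell had identical counts in another library, and the 2 unsorted sets shared 0 barcodes. The second untreated CD45 library stood apart. In it, 50 cells met the B-lineage minimums, and 28 of them were left out by the upper limits. Of those 28 cells, 10 exceeded the Lyz2 limit only, 6 the Cd3 limit only and 12 both. They had a median of 31248.5 UMIs (range 4914 to 143337), against 3701 (range 1650 to 15016) for the 22 members of that library. Whether they were 1 cell or more than 1 per barcode was not tested. The upper limits left out 2 cells in the first untreated library, 0 and 1 in the doxorubicin libraries, and 0 and 6 in the unsorted sets.

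**Figure D1:**
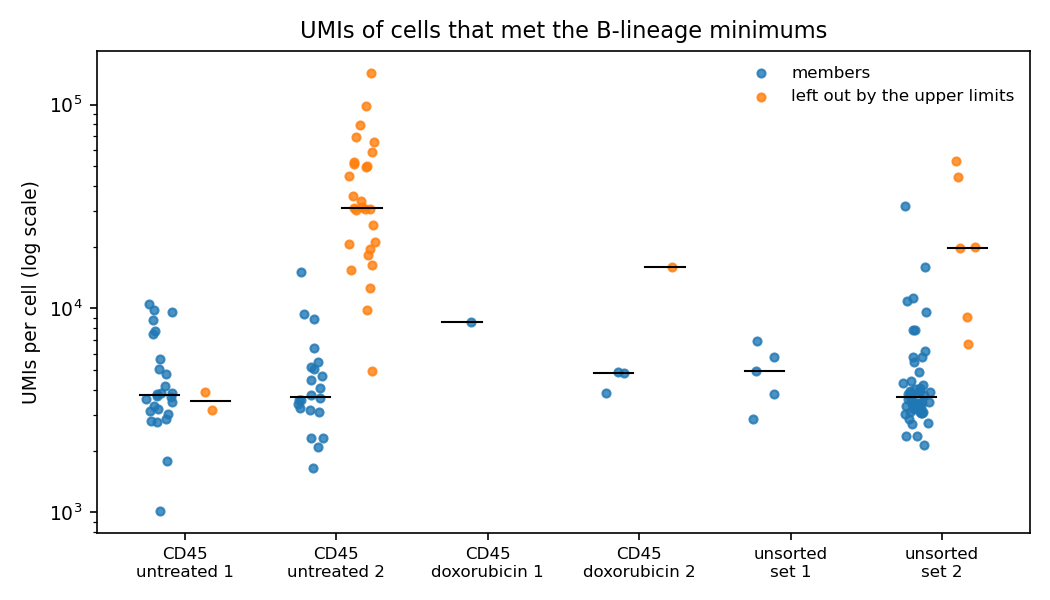
UMIs per cell on a log axis for cells that met the B-lineage minimums in the 4 CD45-sorted libraries and the 2 unsorted sets. Blue points are members, orange points are cells left out by the Cd3, Krt18 or Lyz2 limits, and black lines are medians; in the second untreated library the orange points have a median of 31248.5 UMIs and the blue ones 3701.

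Members were mostly in untreated CD45-sorted tumours and in 1 of the unsorted sets. The first untreated CD45 library held 26 members among 3581 kept cells, a share of 0.726% (exact Clopper-Pearson 95% interval 0.475 to 1.06%). In the second untreated library 22 of 1797 cells were members, or 1.22% (0.769 to 1.85%). The first doxorubicin library held 1 member among 1480 cells, or 0.0676% (0.00171 to 0.376%), and the second 3 among 3996, or 0.0751% (0.0155 to 0.219%). Both untreated libraries lay above both doxorubicin libraries, and these intervals, like all intervals here, cover counting error only.

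The mean share was 0.975% ± 0.352 (SD, n = 2) in untreated and 0.0713% ± 0.00531 (SD, n = 2) in doxorubicin libraries. Summed over libraries the untreated share was 12.2 times the doxorubicin share, with an exact counting interval of 4.47 to 46.7. The two-sided exact permutation test over libraries gave p = 0.333, the smallest value that 2 against 2 libraries allow, so this design could not pass a threshold of 0.05. Neutrophils, taken as cells with 20 or more S100a8 and S100a9 UMIs, made up 7.43% and 7.07% of the untreated libraries and 47.6% and 45.4% of the doxorubicin libraries. Among cells with under 5 such UMIs, the share of members was 0.777% and 1.37% in untreated and 0.229% and 0.115% in doxorubicin libraries. These shares rest on 25 and 22 members in untreated and 1 and 2 in doxorubicin libraries. The cutoff of 5 also leaves out cells that lie between it and the cutoff of 20.

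A ratio to T cells does not include the neutrophils. T cells were cells with 2 or more Cd3 UMIs and under 2 Cd79a UMIs, and numbered 958 and 482 in the untreated and 134 and 531 in the doxorubicin libraries. There were 2.71 and 4.56 members per 100 T cells in untreated libraries, and 0.746 and 0.565 in doxorubicin libraries. The means were 3.64 ± 1.31 (SD, n = 2) and 0.656 ± 0.128 (SD, n = 2), and the summed ratio was 5.54 times as high in untreated tumours (counting interval 2.03 to 21.2). The exact permutation p was again 0.333, and both comparisons of this family stayed at 0.333 after Benjamini-Hochberg adjustment. Fewer B cells per tumour and B cells diluted or lost in sorting cannot be told apart from these shares.

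The T cell sort let few members through. The untreated CD4/8 library held 1 member among 3838 cells, or 0.0261% (0.00066 to 0.145%), and the library taken 48 h after doxorubicin held 2 among 7623, or 0.0262% (0.00318 to 0.0947%). The anti-PD1 arm held 0 of 6356 cells, which allows a share of up to 0.0472% at 3 counts, and the upper end of the exact interval, comparable with those above, was 0.0580%. The anti-CTLA4 arm held 0 of 3445 cells, with limits of 0.0871% at 3 counts and 0.107% by the exact interval. The arm with both antibodies held 0 of 3451 (0.0869% and 0.107%), and the IgG arm 0 of 3614 (0.0830% and 0.102%). At this depth no difference between the 6 arms was detectable, and with 1 library per group none was tested.

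The unsorted sets held 5 members among 1508 cells (0.332%, interval 0.108 to 0.772%) and 52 among 2508 cells (2.07%, interval 1.55 to 2.71%). Their members per 100 T cells were 2.73 and 19.0. The second set therefore held 52 of the 112 members and the highest share of any library. Its share is of all tumour cells, not of sorted immune cells, so the denominators differ.

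**Figure D2:**
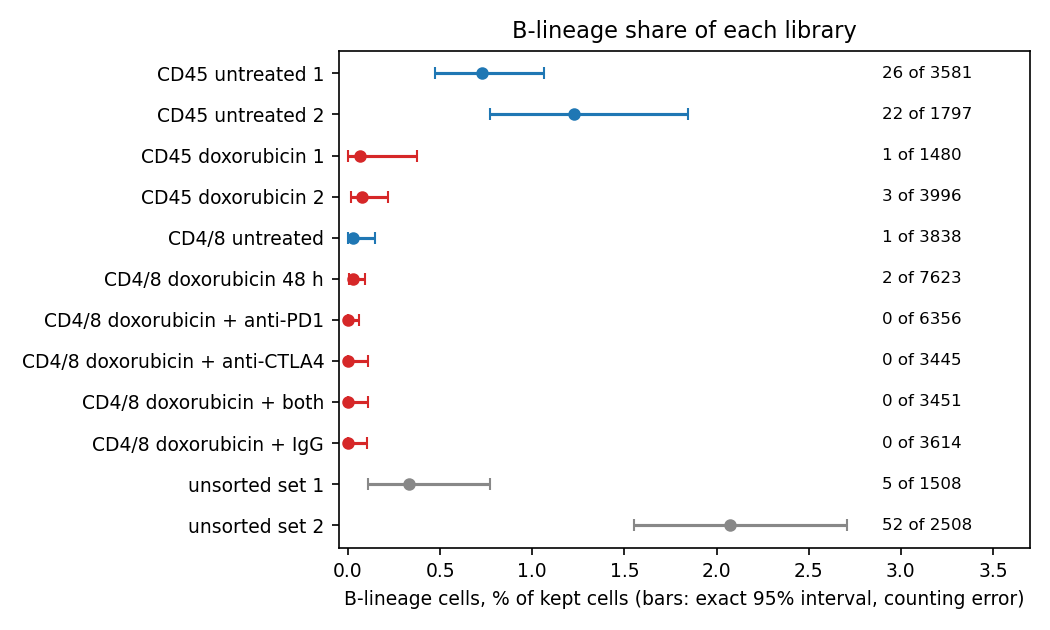
B-lineage members as a percentage of kept cells in each of the 10 sorted libraries and 2 unsorted sets, with exact 95% intervals for counting error and the counts at the right. Blue is untreated, red is doxorubicin and grey is not tied to a treatment; the 2 untreated CD45-sorted libraries lie at 0.726% and 1.22% and the 2 doxorubicin ones at 0.0676% and 0.0751%.

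Cells near the threshold were few. Of the members, 3 held exactly 2 Cd79a UMIs, all in untreated CD45 libraries, and 3 cells just outside the rule held 1 Cd79a UMI, all in the second doxorubicin library. The median member held 9 and 12 Cd79a UMIs in the untreated libraries, and the members of the doxorubicin libraries held 13 to 24. With Cd79a at 1 UMI or more, the second doxorubicin library had 6 members in place of 3, and its share was 0.150%.

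The members carried B-lineage genes outside the rule. Pax5, the factor that holds cells in the B lineage, had UMIs in 18 of 26 members of the first untreated library and 15 of 22 of the second. In all, 79 of 112 members held Pax5. Among T cells of the untreated libraries, Pax5 UMIs were found in 0 of 958 and 2 of 482 cells, although T cells were deeper, at medians of 9455.5 and 16004.5 UMIs against 3779.5 and 3701 for members.

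Levels below are UMIs per 10000 UMIs of the summed members of a library. Ebf1, a factor that opens the B cell programme, stood at 18.7 and 21.5 per 10000 in the untreated libraries, 5.84 and 29.5 in the doxorubicin libraries and 12.3 and 18.9 in the unsorted sets. All 48 untreated members held Ebf1, with 1 to 27 UMIs per cell. T cells of both untreated libraries together stood at 0.00925 per 10000 for Ebf1.

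Markers of other cells were counted in the members. The sums for T cells, macrophages and epithelial cells include genes that the rule itself limited (Cd3d, Cd3e and Cd3g, Lyz2, and Krt18), so their low values are partly set by the rule and are no check of purity. T cell markers were at 0 UMIs in 107 of 112 members, and Siglech, a marker of plasmacytoid dendritic cells, was at 0 in all 112. Marker sums of 10 or more UMIs were found for T cells in 1 member, for macrophages or monocytes in 2, for neutrophils in 2 and for epithelial cells in 0. One member of the first untreated library held 165 S100a8 UMIs, and one of the second unsorted set held 31803 UMIs in all, 30 of S100a8 and 0 of any light chain. These cells and the 1 other member with 20000 or more UMIs, described next, make 5 cells that were left out as an alternative chosen after the data were seen. Without them the untreated shares were 0.698% and 1.11% and the doxorubicin shares 0.0676% and 0.0751%.

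**Figure D3:**
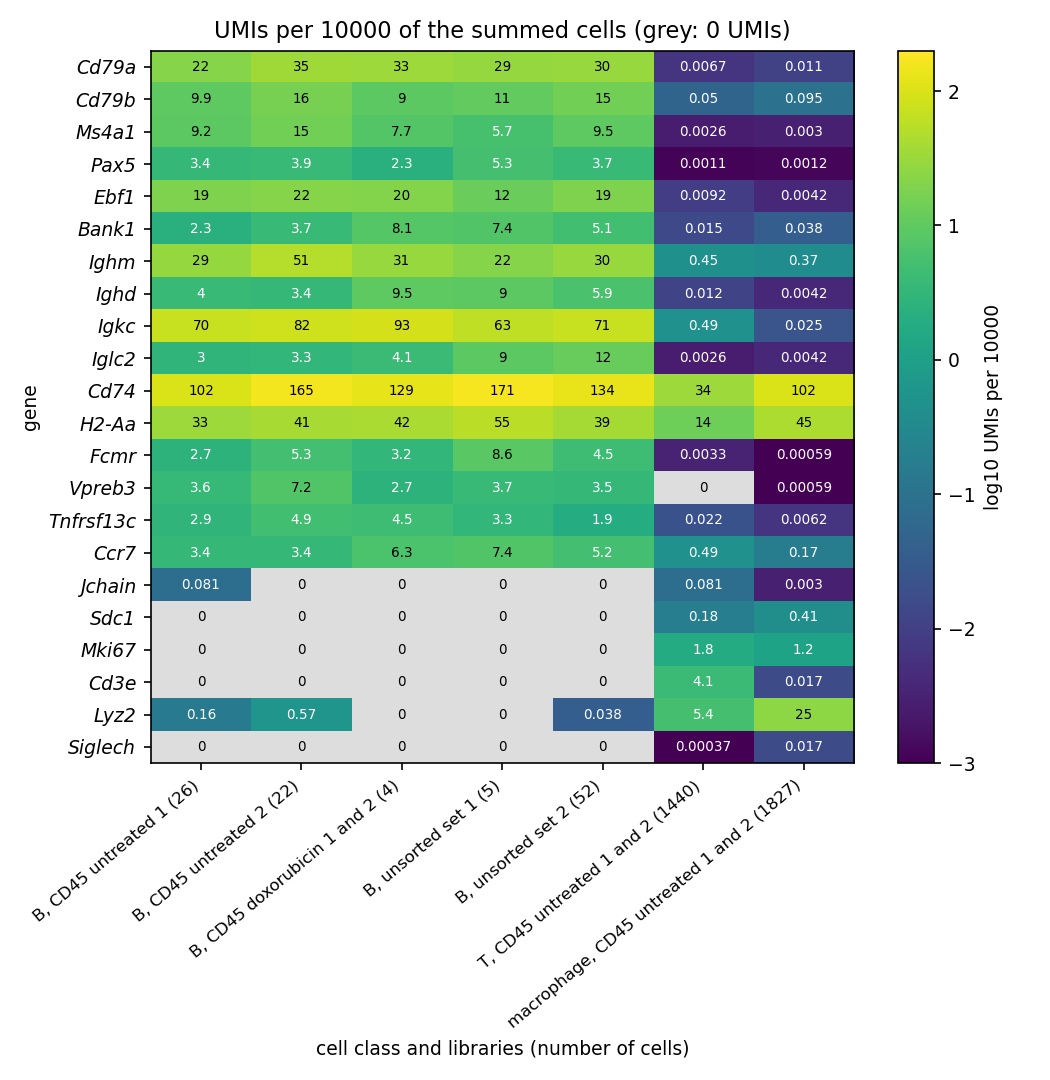
UMIs per 10000 of summed cells for 22 genes, in B-lineage members of 5 groups of libraries and in T cells and macrophages of the untreated CD45-sorted libraries, with the number of cells in brackets. Colour is on a log10 scale and grey is 0 UMIs; Pax5 and Ebf1 are between 2.26 and 21.5 in every B-lineage column and under 0.01 in T cells, while Sdc1 and Mki67 are at 0 in the B-lineage columns.

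Plasma cells made up 1 of the 112 members (0.893%, interval 0.0226 to 4.87%), so the group consisted of B cells with a single plasma-type cell. The plasma-type member, defined by 2 or more Jchain and 1 or more Mzb1 UMIs, was in the CD4/8 library taken 48 h after doxorubicin. It held 28010 UMIs, of which 2017 were Jchain, 2615 Igha (the IgA heavy chain) and 10584 Igkc. Immunoglobulin constant chains together were 47.3% of its UMIs, against 0.0283 to 4.42% in the other 111 members. It held 164 UMIs of Mzb1, a chaperone of antibody assembly, 33 of Xbp1, the factor of the secretory programme, 12 of Ccr10, a homing receptor of IgA plasma cells, 4 of Sdc1 (CD138) and 0 of Ms4a1. Its leading heavy chain variable segment was Ighv1-64, with 14 UMIs. Its leading light chain variable segment was Iglv1, a lambda segment, with 62 of 74 UMIs, although 99.5% of its light chain constant UMIs were kappa. The reason for this mismatch was not tested.

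The rule missed other plasma-type cells. Among all kept cells, 9 met the Jchain and Mzb1 minimums. Of these, 2 held Siglech UMIs (25 and 7) with 9 and 2 Jchain UMIs. Of the other 7, only 1 was a member, 3 held 2 or more Cd3 UMIs and 4 held under 2 Cd79a UMIs, with 1 cell in both counts. The second doxorubicin library held 2 cells with 432 and 744 Ighm, 208 and 299 Jchain and 1 Cd79a UMI each, in which immunoglobulin was 55.8% and 55.4% of UMIs. Both had Ighv5-12 as heavy and Igkv4-72 as light variable segment, on 1 to 3 UMIs of each. The second untreated library held an Ighg2b cell with 36 Jchain and 0 Cd79a UMIs, and 2 Igha cells with Cd3 UMIs, one of which held 13779 Iglc1 UMIs. The second unsorted set held an Igha cell with 28724 Iglc1, 2053 Jchain and 21 Cd3 UMIs. These 6 cells were found after the data were seen and are not among the 112 members. The 2 IgM cells of the second doxorubicin library are, however, among the 3 cells that joined its members with Cd79a at 1 UMI or more.

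Heavy chains showed mainly unswitched cells. Ighm had UMIs in 108 of 112 members, Ighd in 80 and both in 79. Ighm stood at 29.2 and 51.3 per 10000 in the untreated libraries, 54.9 and 15.5 in the doxorubicin libraries and 22.2 and 29.8 in the unsorted sets, so the treated values spanned the untreated ones. Ighd stood at 3.96 and 3.45 per 10000 in untreated libraries, 2.33 and 14.0 in doxorubicin libraries and 9.03 and 5.92 in the unsorted sets. Ighm was not restricted to members. Of the T cells in the first untreated library 31.0% held Ighm UMIs, at 0.523 per 10000. In those T cells Ighm made up 89.7% of Ighm and Igkc UMIs together, against 29.4% in the members of the same library, so the 2 genes were not present in 1 ratio across cell types. In the second untreated library these values were 28.5% in T cells, among which 1 cell held 1185 of 1229 Igkc UMIs, and 38.4% in members.

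Switched heavy chains with 5 or more UMIs were found in 4 members. These were the IgA plasma cell and 3 members of the first untreated library. Of those 3, one held 22 Ighg1 and 6 Ighg2b UMIs with 0 Ighm and 0 Ighd, one held 27 Ighg2b with 14 Ighm, and one, the member with 165 S100a8 UMIs, held 11 Ighg2b with 1 Ighm. Ighg2c and Ighe were at 0 UMIs in all members.

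Light chains were mostly kappa. Igkc, the kappa constant chain, stood at 70.2 and 82.4 per 10000 in the untreated libraries, 114 and 78.9 in the doxorubicin libraries and 62.8 and 71.1 in the unsorted sets. Of 108 members with 5 or more light chain UMIs, 72 had 80% or more kappa, 4 had 20% or less and 32 were between. All 4 lambda cells were in the second unsorted set. They had 0 Igkc UMIs with 26 Iglc2, 0 Igkc with 11 Iglc3, 0 Igkc with 6 Iglc2 and 3 Iglc1, and 10 Igkc with 178 Iglc1.

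The cells between these limits were more frequent in the second unsorted set, with 22 of 51 members, than in the untreated CD45 libraries, with 7 of 45. Iglc2, a lambda constant chain, had UMIs in 45 of 52 members of that set at 11.7 per 10000, against 2.99 and 3.26 in the untreated CD45 libraries. Iglc2 was at 0 UMIs in the 273 T cells and the 587 macrophages of the same set. Iglc2 and Iglc3 are near-identical copies, so the split of reads between them is uncertain.

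**Figure D4:**
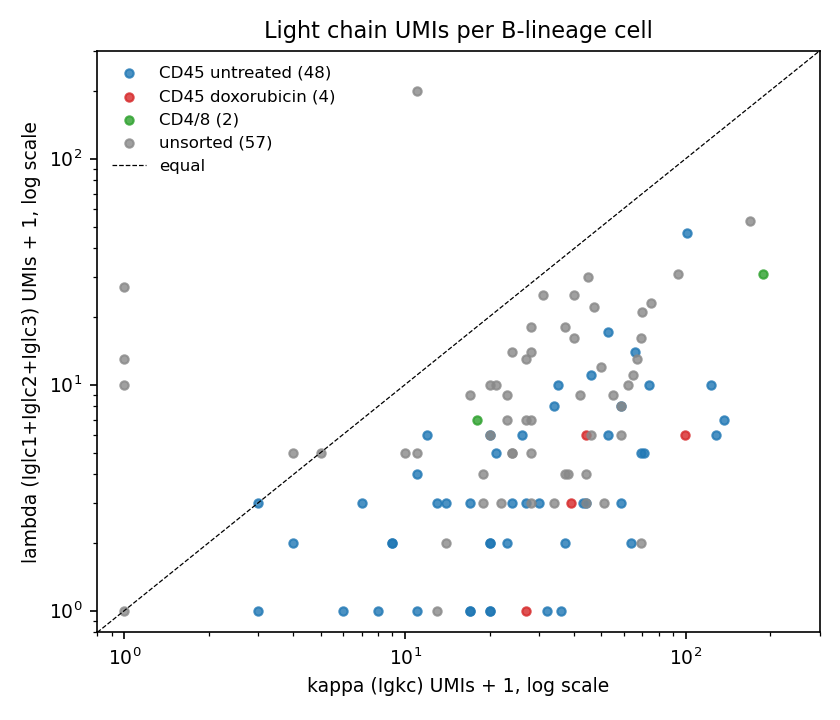
Kappa (Igkc) against lambda (Iglc1, Iglc2 and Iglc3) UMIs, each plus 1 and on log axes, for the 111 members that were not plasma-type, coloured by kind of library. Most points lie below the dashed line of equal counts; the 4 cells with 20% or less kappa lie above it, all in the unsorted sets.

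Members with and without Ighd differed in other genes. Ighd UMIs were found in 80 members and in none of 31 others outside plasma type, at medians of 3793 and 3761 UMIs. Fcer2a (CD23), a receptor of follicular B cells, stood at 1.92 per 10000 (interval 1.50 to 2.43) in members with Ighd and at 0.220 (0.0598 to 0.562) in those without. H2-Aa, an MHC class II chain, stood at 46.0 and 23.4. Vpreb3, a protein of early and immature B cells, stood at 2.52 (2.04 to 3.09) in members with Ighd and 7.19 (6.01 to 8.53) in those without. Ly6d, counted on the B identity list, stood at 11.6 and 25.6. Cd24a, counted on the costimulation list and high on immature B cells, stood at 2.58 and 5.10. The split was made after values were seen, mixes libraries, and was not tested.

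Of 16 members with 5 or more Vpreb3 UMIs, 11 held no Ighd. Of the 16, 9 were in untreated CD45 libraries and 5 in the unsorted sets. In the second unsorted set, 2 members held 5 and 7 UMIs of Rag1, the recombinase of antibody gene assembly, with 0 Ighd and 9 and 4 Igkc UMIs. Rag1 was at 0 UMIs in the members of the 4 CD45-sorted libraries. In the second untreated library, however, 2 cells left out by the upper limits, with 12545 and 97953 UMIs, held 3 Rag1 UMIs each.

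Genes of dividing cells were near 0. The 15 genes of the G2/M list summed to 6 and 6 UMIs in the untreated members, or 0.485 and 0.575 per 10000, and to 0 and 1 UMIs in the doxorubicin members. T cells of both untreated libraries together stood at 11.9 per 10000 for the G2/M list. Mki67, a marker of cycling cells, was at 0 UMIs in the members of both untreated libraries, where 3 counts would be 0.243 and 0.287 per 10000.

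Of the B cell receptor signalling list, Syk, the kinase recruited by Cd79a and Cd79b, stood at 5.26 and 4.79 per 10000 in untreated, 3.50 and 2.95 in doxorubicin and 4.10 and 2.77 in unsorted members. Lyn, the kinase that starts the signal, stood at 3.24 and 4.02, 5.84 and 2.21, and 2.46 and 2.50. Siglecg, an inhibitory receptor, stood at 2.59 and 3.06 in untreated members, had 0 and 2 UMIs in doxorubicin members, and stood at 1.64 and 3.15 in unsorted ones. The whole B cell receptor signalling list of 18 genes stood at 30.7 and 35.4 in untreated, 26.8 and 26.5 in doxorubicin and 27.1 and 25.4 in unsorted members.

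Survival receptors and their ligands lay in different cells. Tnfrsf13c, the receptor of the B cell survival factor BAFF, stood at 2.91 and 4.88 per 10000 in untreated members, with 17 of 26 and 13 of 22 cells holding UMIs. It had 0 UMIs in the 1 member of the first doxorubicin library and 10 UMIs over the 3 members of the second. Mcl1, which protects lymphocytes from apoptosis, stood at 12.5 and 7.66 in untreated and 10.5 and 9.59 in doxorubicin members. Tnfsf13b, which encodes BAFF, was at 0 UMIs in all members, allowing 0.0518 per 10000, and stood at 0.228 and 0.453 in macrophages of the untreated libraries and 0.103 and 0.0586 in those of the doxorubicin libraries. Tnfsf13, which encodes the related ligand APRIL, had 1 UMI in all members and stood at 0.505 and 0.545 in untreated and 0.788 and 1.07 in doxorubicin macrophages.

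Homing receptors were found in the members, and the follicle chemokine was found only in other cells. Ccr7, the receptor that guides lymphocytes to lymph nodes, had UMIs in 16 of 26 and 13 of 22 untreated members, at 3.40 and 3.45 per 10000, and stood at 14.0 and 1.47 in doxorubicin members on 12 and 2 UMIs. Cxcr4, a receptor for the chemokine Cxcl12, stood at 2.51 and 3.93 in untreated members and 2.33 and 1.47 in doxorubicin members. Cxcl13, the chemokine that draws B cells into follicles, was at 0 UMIs in all members. In the second untreated library, Cxcl13 had 884 UMIs in 2 cells of the T cell class, and in the first it had 106 UMIs in 2 macrophages. That T cell class set no limit on markers of macrophages or fibroblasts. In the second library it held macrophage markers at 42.2 and fibroblast markers at 0.847 per 10000, against 3.38 and 0.0180 in the first. Which cells made the Cxcl13 RNA was not tested.

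Members held the genes of antigen presentation. Cd74, the chain that guides MHC class II, stood at 102 and 165 per 10000 in untreated members, 70.0 and 166 in doxorubicin members and 171 and 134 in unsorted ones. H2-Aa stood at 33.0 and 40.5, 15.2 and 58.3, and 55.4 and 38.6, and H2-Ab1 at 26.5 and 33.5, 19.8 and 50.9, and 35.7 and 28.7. The 11 genes of MHC class II summed to 256 per 10000 in the 4 doxorubicin members together and to 238 in the 48 untreated members, a ratio of 1.08 (counting interval 0.985 to 1.17). MHC class I, 10 genes that include H2-K1, H2-D1 and B2m, stood at 55.6 and 56.7. In the macrophages of the same libraries, MHC class II stood at 95.3 per 10000 in doxorubicin and 245 in untreated tumours.

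Of the 24 gene lists, the interferon-gamma list had the lowest doxorubicin level relative to untreated among those with UMIs in both groups. Its 14 genes had 165 and 171 UMIs in the untreated members, or 13.3 and 16.4 per 10000, and 1 and 2 UMIs in the doxorubicin members, or 1.17 and 1.47 per 10000. The summed untreated level was 10.9 times the doxorubicin level, with a counting interval of 3.69 to 52.97 that rests on 3 UMIs in 4 cells. Of 23 lists with UMIs, 2 had a doxorubicin to untreated ratio whose counting interval excluded 1. The other was the activation list, at 0.654 (0.504 to 0.836). Between the 2 untreated libraries the interval excluded 1 for 12 of 23 lists, so such intervals were common without a difference in treatment. Per cell, untreated members held a median of 4.5 and at most 56 UMIs of the interferon-gamma list, and doxorubicin members held at most 1. The unsorted members stood at 5.34 and 5.61 per 10000. Without the cells that carried other cells' markers, the untreated sum was 13.4 per 10000 and the ratio 9.87 (3.34 to 48.1).

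Irf1, a transcription factor induced by interferon-gamma, led that list with 58 and 67 UMIs in untreated members, or 4.69 and 6.42 per 10000. Irf1 UMIs were found in 19 of 26 and 17 of 22 untreated members and in 0 of 4 doxorubicin members, where the exact interval reaches 60.2%. The untreated Irf1 level was 4.04 times the level that 3 counts over the doxorubicin members would give. Without the cells that carried other cells' markers it was 3.90 times that level. These folds are not limits of a counting interval. Socs1, a feedback inhibitor of cytokine signalling, had 40 and 19 UMIs and Ifi47, an interferon-induced GTPase, 15 and 14 in untreated members, and both had 0 in doxorubicin members. Irf1 stood at 3.28 and 1.15 per 10000 in the unsorted members.

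Other cells of these libraries had lower interferon-gamma values with doxorubicin as well. In macrophages the interferon-gamma list stood at 30.2 per 10000 over the untreated and 5.17 over the doxorubicin libraries, a ratio of 5.83. In T cells it stood at 13.3 and 6.99, a ratio of 1.90. The T cell gap was no larger than that between the 2 untreated libraries, at 9.18 and 17.6, with the second 1.92 times the first. T cells of those 2 libraries also held macrophage markers at 3.38 and 42.2 per 10000. Macrophages of the 2 untreated libraries stood at 27.6 and 34.6 for the interferon-gamma list. Whether the members' values came from RNA of macrophages or T cells was not tested. Of the type I interferon list, Rsad2 had 39 of its 41 UMIs in the second untreated library in a single member that also held 31 UMIs of macrophage markers.

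**Figure D5:**
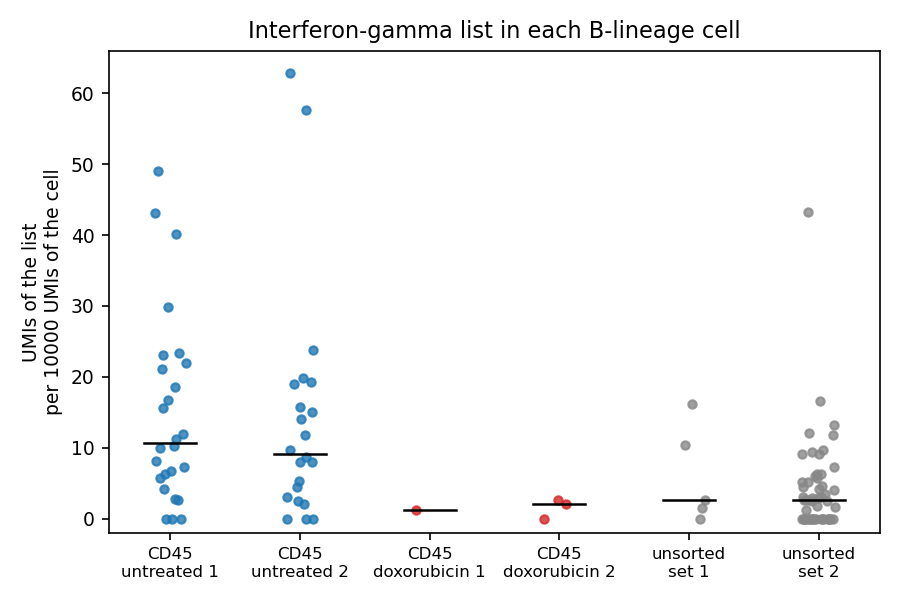
UMIs of the 14 interferon-gamma list genes per 10000 UMIs of the cell, for each member of the 4 CD45-sorted libraries and the 2 unsorted sets, with medians as black lines. The 4 doxorubicin cells (red) hold 0 or 1 UMI each, while the 48 untreated cells (blue) hold a median of 4.5 and up to 56 UMIs.

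Genes of the DNA damage response were not higher in doxorubicin members in these counts. The 18 p53 targets stood at 12.9 and 13.6 per 10000 in untreated, 11.7 and 11.8 in doxorubicin and 18.1 and 14.8 in unsorted members. Btg2, an antiproliferative p53 target, led the list at 7.60 and 9.29 in untreated and 2.33 and 4.42 in doxorubicin members. Cdkn1a, which encodes the cell cycle inhibitor p21, had 13 and 1 UMIs in untreated and 0 and 0 in doxorubicin members, where 3 counts would be 1.36 per 10000 over both. In the second unsorted set 32 of its 39 Cdkn1a UMIs were in the member with 31803 UMIs. The macrophages of the doxorubicin libraries stood at 12.3 and those of the untreated ones at 4.78 for Cdkn1a.

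The 2 untreated libraries differed from each other in both directions. In the first, B identity genes summed to 206 per 10000 against 318 in the second, a ratio of 0.648 (counting interval 0.615 to 0.683). MHC class II stood at 198 and 285 (ratio 0.695, 0.659 to 0.733), immature B genes at 3.64 and 7.28 (0.500, 0.338 to 0.733) and type I interferon genes at 5.58 and 11.6 (0.482, 0.353 to 0.653). Cd74 is on both the B identity and the MHC class II list. The ratios of these 2 lists were 0.0876 and 0.0758 in T cells and 0.479 and 0.548 in macrophages, so neither gap was particular to the members. Of the 121 type I interferon UMIs in the second library, 39 were Rsad2 in 1 member that also held 31 macrophage marker UMIs. Gm42418, which overlaps a ribosomal RNA repeat, stood at 212 and 16.7 per 10000 in the untreated members and at 147 and 22.9 in the doxorubicin members. T cells of the 2 untreated libraries stood at 167 and 19.4 for Gm42418, so the gap was not particular to the members, and its part in the differences between these libraries was not tested.

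The activation list summed to 54.2 per 10000 in the first untreated library and 38.5 in the second. The heat shock list summed to 37.0 and 18.9. Genes of these lists differed, and Junb had a ratio of 1.06 (counting interval 0.864 to 1.30). Ier2 (0.713), Jun (0.698), Cd83 (0.774) and Hspa1b (0.563) were lower in the first, with intervals that held 1. The 3 genes below were among those higher in the first. Cd69, an early activation marker, stood at 9.63 per 10000 in the first and 3.73 in the second, a ratio of 2.58 (counting interval 1.78 to 3.80). Nr4a1, induced by B cell receptor signalling, stood at 7.28 and 2.11, a ratio of 3.46 (2.15 to 5.79). Hsp90aa1, a heat shock chaperone, stood at 13.8 and 4.12, a ratio of 3.34 (2.38 to 4.78). The doxorubicin members stood at 2.33 and 2.21 for Cd69, 1.17 and 3.69 for Nr4a1 and 10.5 and 3.69 for Hsp90aa1. For each of these 3 genes the first untreated library stood above both doxorubicin libraries, while the second lay above both for Cd69 and between them for Nr4a1 and Hsp90aa1.

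Other B cell lists held few UMIs. Cd274, which encodes PD-L1, had 20 and 17 UMIs in untreated members, or 1.62 and 1.63 per 10000, and 0 and 1 UMIs in doxorubicin members. Cd86, a costimulatory ligand of T cells, had 23 and 12 UMIs in untreated and 0 and 2 in doxorubicin members. Il12a, a cytokine subunit counted on the regulatory B list, had 4 and 3 UMIs in untreated and 0 and 2 in doxorubicin members. The memory or atypical B list had 13 and 14 UMIs in untreated members and 0 in doxorubicin members. Among marginal zone or B1 genes, Mzb1 stood at 2.27 and 4.21 per 10000 in untreated, 9.34 and 5.16 in doxorubicin and 6.16 and 4.50 in unsorted members.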

How the data were processed

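The deposited matrices and the pooled table hold raw UMI counts, made by the authors with Cell Ranger 6.0.0 for the sorted libraries, per the file headers. For the unsorted tumours the submitters' processing notes name Cell Ranger, Seurat and build mm10; the build of the sorted libraries is not given in the sources used here. Matrix rows were named by the gene order of the pooled table (32285 genes). As a check, log totals per row were correlated with those of the pooled table across genes: r was 0.954 to 0.984, and 0.354 or less after moving the rows by 1 to 50 places. A bulk table with 12 columns that match no sample was not used.

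Members, gene lists and the naming rule were chosen with earlier results of these data known. Named genes were the immunoglobulin constant chains and the 3 members of each list with the most UMIs per 10000. Pax5, Nr4a1, Fcer2a, Ly6d, Gm42418, Mki67, Siglech, Sdc1, Xbp1 and Ccr10 were named after values were seen. Some genes chosen by these rules are not reported here. Of the list genes, 1 (Mx1) was absent. No doublet caller was run; the upper limits removed cells with T cell, epithelial or myeloid counts. Macrophages were cells with 5 or more Csf1r, C1qa, C1qb and Adgre1 UMIs outside the T cell and neutrophil classes.

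Shares were compared over libraries by an exact permutation test, with Clopper-Pearson intervals per library, and UMI sums have exact Poisson or conditional binomial intervals at 95% confidence (Python 3.11.15, scipy 1.17.1). The test across all genes planned for doxorubicin against untreated needed 20 members in each library and was not run. The labels do not say whether libraries came from separate animals, so p-values apply to these libraries only. With 6 arrangements, a permutation p of 0.333 reflects only that the untreated and doxorubicin libraries did not overlap.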

Additional observations from a re-analysis of the deposited data

Results flagged for a closer look

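The unsorted tumour table, which entered no comparison, held B-lineage cells in both barcode sets. Their share was 0.332% in the first and 2.07% in the second, against 0.0676% and 0.0751% in the 2 doxorubicin CD45-sorted libraries and 0.726% and 1.22% in the 2 untreated ones. These shares have unlike denominators. Epithelial cells (5 or more Krt8 and Krt18 UMIs, no Ptprc, outside the other classes) made up 41.4% and 25.6% of the unsorted sets. In the CD45-sorted libraries they made up 4.12% to 12.3%. All 1508 and 2508 barcodes of the unsorted sets passed the cell filter, and whether they were filtered before deposit is not known. The sets are not tied to a tumour or treatment, and the cause of their difference was not tested.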

How the results depend on the processing

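Under 11 other settings, the untreated minus doxorubicin share kept its sign, at 0.683 to 1.70 percentage points against 0.904, and under 9 settings the ratio per 100 T cells kept its sign, at 2.70 to 5.90 against 2.98. Every p stayed at 0.333. The highest values came with no upper limits, where the second untreated library had 50 members, and the lowest share difference with cells thinned to 1000 UMIs, where members numbered 14 and 16 in untreated and 0 and 2 in doxorubicin libraries. Leaving out 1 library at a time, which leaves 1 library in a group and no test, gave 0.655 to 1.15 percentage points and 2.06 to 3.91 per 100 T cells. With the replicate number as a block, the mean differences were 0.904 and 2.98, with an exact sign-flip p of 0.5, the smallest that 2 pairs allow; nothing in the labels says that the numbers pair libraries. Settings without upper limits, without cells carrying other markers, and with the block were chosen after seeing the data. Of 54 alternatives for the CD4/8 shares, 2 moved beyond the counting interval: the untreated share was 0% with mitochondrial UMIs under 10% and 0% when thinned to 1000 UMIs, since its only member was lost. The plasma-type share was 0.893% under both other definitions. Both re-cut the same members, of which 1 stood far above the rest in Jchain and immunoglobulin, so they could not move this share. Cd79a at 1 UMI or more would admit the 2 IgM cells of the second doxorubicin library, and no plasma-type share was taken with it. The alternatives planned for a test across genes were not run, because the doxorubicin libraries held 1 and 3 members. Depth limits every doxorubicin level: their 4 members held 22129 UMIs in all.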
